A study of Rattus norvegicus with 8 samples.

Results

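The transcripts described here are those of 10 hypoxia-inducible and glycolysis genes, *Hif1a*, *Vegfa*, *Slc2a1*, *Hk2*, *Pfkfb3*, *Pgk1*, *Ldha*, *Bnip3*, *Egln3* and *Adm*, in reporter peripheral blood mononuclear cells (PBMCs) cultured with plasma. They were chosen by name, as every probe set annotated to exactly 1 of these symbols, which gave 15 of 31042 probe sets and 10 of 14217 genes. PBMCs are the blood lymphocytes and monocytes left after a density gradient. Those of 2 healthy male Brown Norway (BN) rats of about 180 days, BN1 and BN2, were used, and 500000 cells per well were cultured for 6 h with 20% plasma. The study asked whether plasma of adult rats that had met intermittent hypoxia (IH) as neonates changes transcription in healthy cells. The reporter cells themselves were not made hypoxic.

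Normoxic control plasma was a pool from 8 male Sprague-Dawley rats kept at 21% oxygen. The 5% IH pool came from 5 such rats exposed to 5% oxygen and the 10% IH pool from 3 exposed to 10% oxygen. In each case the exposure came in short repeated cycles within 1 h a day, on postnatal days 2 to 6. All of these rats were bled as adults at PD114 after an overnight fast. Autologous BN plasma gave the background, and the labels of its 2 arrays disagree on which donor's plasma was used. Sprague-Dawley and autologous plasma thus differed in strain, in age, in breeding and housing site and in being pooled from other animals. No fast is stated for the BN rats. These differences cannot be told apart. Each Sprague-Dawley plasma was pooled 1 time, so that the 2 arrays of such a group differ by reporter donor. The 2 autologous arrays may differ by plasma as well. All p-values rest on these 2 arrays per group, and none measures the spread between pools.

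Hypoxia-inducible factor 1 (HIF-1) is a transcription factor whose alpha subunit, the product of *Hif1a*, is made in normoxia too but is hydroxylated by prolyl hydroxylases such as that of *Egln3* and then destroyed. When oxygen falls the subunit persists and turns on genes for new vessels (*Vegfa*, *Adm*), glucose uptake (*Slc2a1*), glycolysis (*Hk2*, *Pfkfb3*, *Pgk1*, *Ldha*) and removal of mitochondria (*Bnip3*). In monocytes and macrophages inflammatory signals are known to raise HIF-1 and its targets at normal oxygen as well. The arrays measured transcripts and say nothing of the HIF-1 alpha protein.

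Values are log2 levels of 8 arrays, 1 per culture, with array medians of 5.53 to 5.56. The study's criterion, used here for calls, asks that group means differ by more than 0.263 on the log2 scale (1.2-fold) with a p under 0.05 from the Rank Product, a test on ranks of between-array ratios. A second test, limma over all 31042 probe sets, gives the standard errors (SE) and the p-values adjusted by Benjamini-Hochberg, with n = 2 arrays per group throughout. As a check of the PBMC label, the 9 T cell markers had a mean level of 8.65 to 8.87 and the 5 measured B cell markers one of 8.38 to 8.91. The 7 measured platelet markers (8.74 to 9.06) and 6 red cell precursor markers (8.2 to 8.5) were present as well. The 9 monocyte markers had a mean level of 5.10 and 5.43 with autologous plasma, but 6.83 and 7.0 with control, 6.99 and 7.15 with 5% IH and 6.93 and 6.96 with 10% IH plasma.

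*Vegfa*, the growth factor for blood vessels, changed most among these genes. Its brighter probe set (1373807_at) was at 4.09 and 4.30 with autologous plasma in cells of BN1 and BN2, 6.84 and 7.08 with control, 6.91 and 7.24 with 5% IH and 6.74 and 7.02 with 10% IH plasma. Both autologous arrays lay below all 6 Sprague-Dawley arrays, and the 3 Sprague-Dawley groups overlapped each other. The level was 6.80-fold higher with control than with autologous plasma (95% confidence interval 5.34 to 8.65, log2 ratio 2.76, SE 0.153, adjusted p = 2.97e-05 from limma), by 2.75 in BN1 and 2.78 in BN2. It was 7.37-fold higher with 5% IH (5.79 to 9.39, adjusted p = 1.70e-05) and 6.44-fold higher with 10% IH plasma (5.06 to 8.20, adjusted p = 3.50e-05). Among the 14217 genes *Vegfa* had the 26th, 30th and 29th highest ratio to autologous plasma in these comparisons, which share the 2 autologous arrays.

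The other *Vegfa* probe set (1370081_a_at) did not show this. It was at 4.68 and 4.84 with autologous plasma and between 4.87 and 5.04 with the others, and its log2 ratios of 0.16, 0.16 and 0.23 did not meet the criterion. By the mean of both probe sets the ratios to autologous plasma were 1.46 with control, 1.52 with 5% IH and 1.46 with 10% IH plasma, so the size of the change depends on the probe set used. With autologous plasma the brighter probe set lay at the 27.2 and 31.0 percentile of its array, against 64.5 to 70.8 on the other arrays, so that the size of the ratios, and with it the ranks above, is less certain than their direction. Monocyte markers rose in the same comparison, 6 of 9 by the criterion, with log2 ratios from -0.05 to 5.28 and a median of 1.05, among them *Cd14*, the lipopolysaccharide co-receptor (5.28), *Csf1r*, the receptor of macrophage colony-stimulating factor (2.89), and *Lyz2*, lysozyme (2.45). *Cd14* had the highest ratio of all genes against autologous plasma with each Sprague-Dawley plasma. Of 7 measured neutrophil markers 3 were higher too, among them *Csf3r*, the receptor of granulocyte colony-stimulating factor (0.87), as was 1 of 5 B cell markers, *Fcer2* (1.26). The part of monocyte number or state and of these other cells in the *Vegfa* result was not tested, and in bulk RNA fewer cells of a type and less RNA per cell cannot be told apart.

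**Figure D1:**
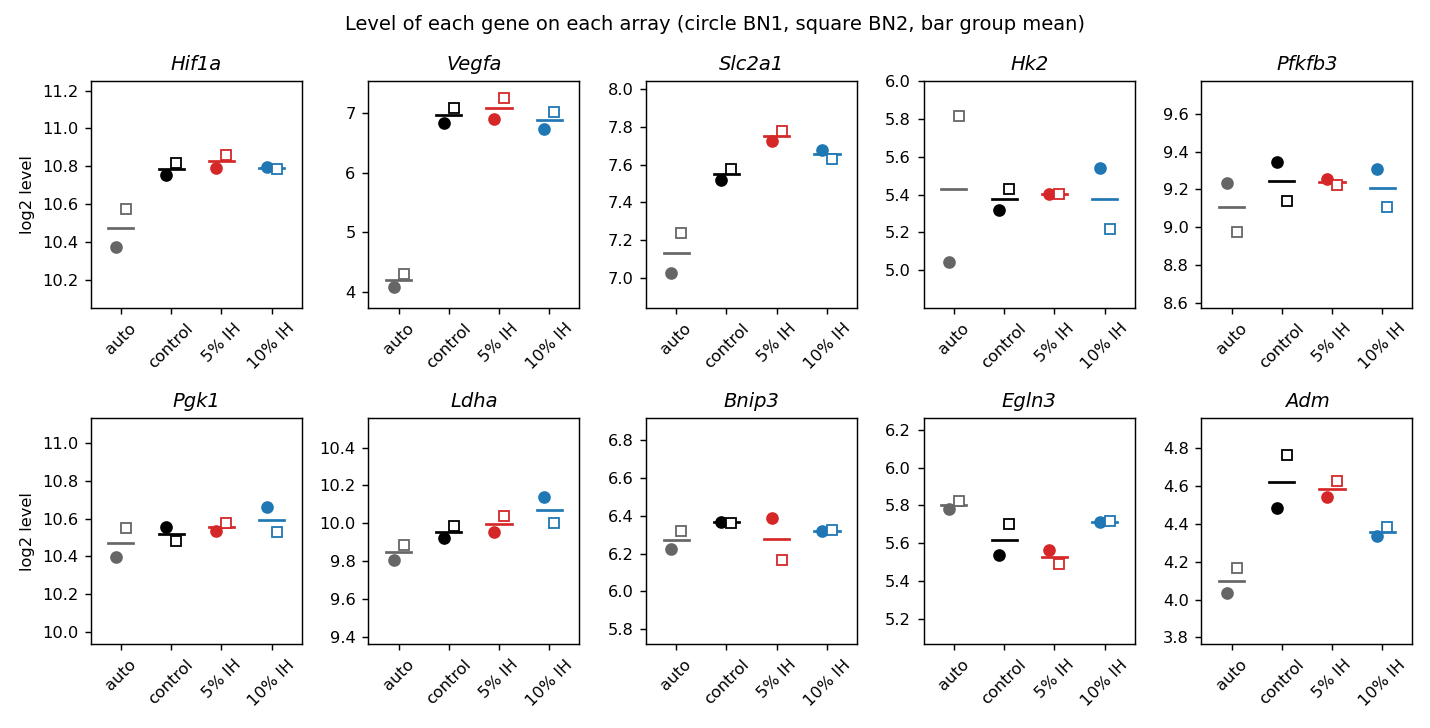
Log2 level of each gene, by its brightest probe set, on each of the 8 arrays, with 1 panel per gene, plasma groups along the x axis (auto, autologous), the same span of values in every panel except *Vegfa*, circles for BN1, squares for BN2 and bars for group means. *Vegfa* lies at 4.09 and 4.30 with autologous plasma and between 6.74 and 7.24 with the others, while *Hk2* spreads most within the autologous pair (5.04 and 5.81).

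*Adm*, which encodes the vasodilator peptide adrenomedullin, was also lower with autologous plasma. Its level was 4.03 and 4.17 there, 4.48 and 4.76 with control, 4.55 and 4.63 with 5% IH and 4.34 and 4.38 with 10% IH plasma. No Sprague-Dawley array reached down to the autologous pair, and the 10% IH arrays lay below the control and 5% IH arrays. *Adm* met the criterion against autologous plasma with control (log2 ratio 0.52, SE 0.112, adjusted p = 0.0624, and 0.0432 with donor as a block) and with 5% IH (0.49, adjusted p = 0.0808). With 10% IH the ratio of 0.26 was just under the threshold, and it met the criterion without the BN2 array of autologous plasma (0.32). These levels were under the 40th percentile of all probe sets, where log2 ratios are less certain in size.

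*Hif1a*, which encodes the oxygen-regulated subunit itself, moved less. It was at 10.37 and 10.58 with autologous plasma, 10.75 and 10.82 with control, 10.79 and 10.86 with 5% IH and 10.79 with 10% IH plasma in cells of both donors. Both autologous arrays lay below the other 6, which overlapped. The log2 ratios to autologous plasma of 0.31, 0.35 and 0.32 (SE 0.0965) met the study's criterion but not limma (adjusted p = 0.250, 0.159 and 0.283), although limma with an intensity trend and robust moderation called it with control (adjusted p = 0.0441, range over the alternatives 0.0441 to 0.669) and with 5% IH (0.0202, range 0.0202 to 0.525). The criterion was lost without the BN1 array of autologous plasma (0.21, 0.25 and 0.21) or without either control array (0.34 and 0.28). It was also lost without the BN2 array of 5% IH (0.32) or without either array of 10% IH (0.31 and 0.32). The 1-sided Rank Product p was 0.0307 with control, 0.0214 with 5% IH and 0.0324 with 10% IH. With a 2-sided p the criterion was thus met with 5% IH only.

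*Egln3*, the prolyl hydroxylase that is itself a HIF-1 target, went the other way. Its level was 5.78 and 5.82 with autologous plasma, 5.54 and 5.70 with control, 5.56 and 5.49 with 5% IH and 5.71 and 5.72 with 10% IH plasma. It was lower with 5% IH than with autologous plasma by the criterion (log2 ratio -0.27, SE 0.0919, adjusted p = 0.285), and the ratios of -0.18 with control and -0.09 with 10% IH did not meet it. The call was lost without the BN2 array of 5% IH (-0.24), without either autologous array (-0.30 and -0.25) and with ratios taken within donor. It was also lost with a 2-sided p, since the 1-sided Rank Product p was 0.0460.

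*Slc2a1*, the glucose transporter GLUT1 through which glucose enters blood cells, rose with every Sprague-Dawley plasma. It was at 7.03 and 7.24 with autologous plasma, 7.52 and 7.57 with control, 7.73 and 7.78 with 5% IH and 7.68 and 7.63 with 10% IH plasma. The 4 groups did not overlap, in the order autologous, control, 10% IH and 5% IH. With 2 arrays per group such a separation can easily arise by chance. Of the 15 probe sets, 7 did not overlap between 10% IH and control, 2 between 5% IH and control and 4 between 5% and 10% IH. The share among all probe sets was not counted. Among Sprague-Dawley plasmas no difference of *Slc2a1* met the criterion or was called by limma, and the order of its levels was not tested. The log2 ratios to autologous plasma were 0.42 with control (SE 0.0976, adjusted p = 0.0928), 0.62 with 5% IH (adjusted p = 0.0117) and 0.52 with 10% IH (adjusted p = 0.0413, and 0.0583 with donor as a block), and each met the criterion, also with any 1 array left out. In limma the 5% IH call was lost without the BN1 (adjusted p = 0.0754) or BN2 array of 5% IH (0.117) or the BN1 array of autologous plasma (0.0723), and the 10% IH call without any 1 array other than the BN2 array of autologous plasma (0.0859 to 0.241).

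The enzymes of glycolysis itself changed little. *Hk2*, the inducible hexokinase that traps glucose in the cell, was at 5.04 and 5.81 with autologous plasma, a wider gap than in any other group, and at 5.32 and 5.43 with control, 5.40 and 5.40 with 5% IH and 5.54 and 5.22 with 10% IH plasma. Its log2 ratios to autologous plasma were -0.05, -0.02 and -0.05 (SE 0.217), with 0.28, 0.36 and 0.50 in BN1 and -0.38, -0.41 and -0.60 in BN2. The mean therefore describes neither donor, and it was 0.33, 0.36 and 0.34 without the BN2 array of autologous plasma and -0.44, -0.41 and -0.44 without the BN1 array.

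*Pfkfb3*, which makes the fructose 2,6-bisphosphate that drives phosphofructokinase, has 3 probe sets. The brightest (1390391_at) was at 9.23 and 8.98 with autologous plasma, 9.35 and 9.14 with control, 9.26 and 9.22 with 5% IH and 9.31 and 9.11 with 10% IH plasma, and all groups overlapped. Its log2 ratios to autologous plasma were 0.14, 0.14 and 0.10 (SE 0.122). The second (1397082_at) had -0.08, -0.11 and -0.25, of which the last met the criterion, as a lower level, without the BN2 array of autologous plasma (-0.39) or the BN1 array of 10% IH (-0.30). The dimmest (1369794_a_at) had ratios of 0.02, 0.02 and -0.06, at levels of 3.43 to 3.76.

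*Pgk1*, the phosphoglycerate kinase of the first step that yields ATP, was at 10.40 and 10.55 with autologous plasma and between 10.48 and 10.66 on the other arrays by its brightest probe set (1388318_at). Its log2 ratios of 0.04, 0.08 and 0.12 (SE 0.0961) and those of 1387361_s_at, of 0.02, 0.03 and 0.12, did not meet the criterion, and 1368906_at stayed at 1.95 to 2.21, near the floor of the arrays. *Ldha*, which turns pyruvate to lactate, was at 9.81 and 9.88 with autologous plasma, 9.92 and 9.98 with control, 9.96 and 10.04 with 5% IH and 10.14 and 10.00 with 10% IH plasma. Every Sprague-Dawley array lay above both autologous arrays, but the log2 ratios of 0.11, 0.15 and 0.23 (SE 0.0924, adjusted p = 0.817, 0.669 and 0.476) did not reach 0.263. *Bnip3*, a mitochondrial protein of the BCL2 family that marks mitochondria for autophagy, was between 6.17 and 6.39 on all 8 arrays, with ratios of 0.10, 0.01 and 0.05 (SE 0.0988).

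Over the 15 probe sets, 4 were higher and 0 lower with control than with autologous plasma by the criterion, where 5.33% of all probe sets were higher and 5.15% lower. With 5% IH 4 were higher and 1 lower (5.41% and 5.36% of all), and with 10% IH 3 were higher and 0 lower (5.14% and 5.21%). limma called 1 higher with control, 2 with 5% IH and 2 with 10% IH, against 1.48%, 1.71% and 1.2% of all probe sets, and with donor as a block 2, 2 and 1. The median log2 ratio of the 10 genes to autologous plasma was 0.12 with control, where that of all genes was -0.0075. Monocyte markers rose with each Sprague-Dawley plasma, 6 of 9 by the criterion, and their part in these counts was not tested. Of the 15 probe sets 12 passed a filter that leaves out the dimmest 40%, which took out *Adm* and the dimmest probe sets of *Pfkfb3* and *Pgk1*.

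**Figure D2:**
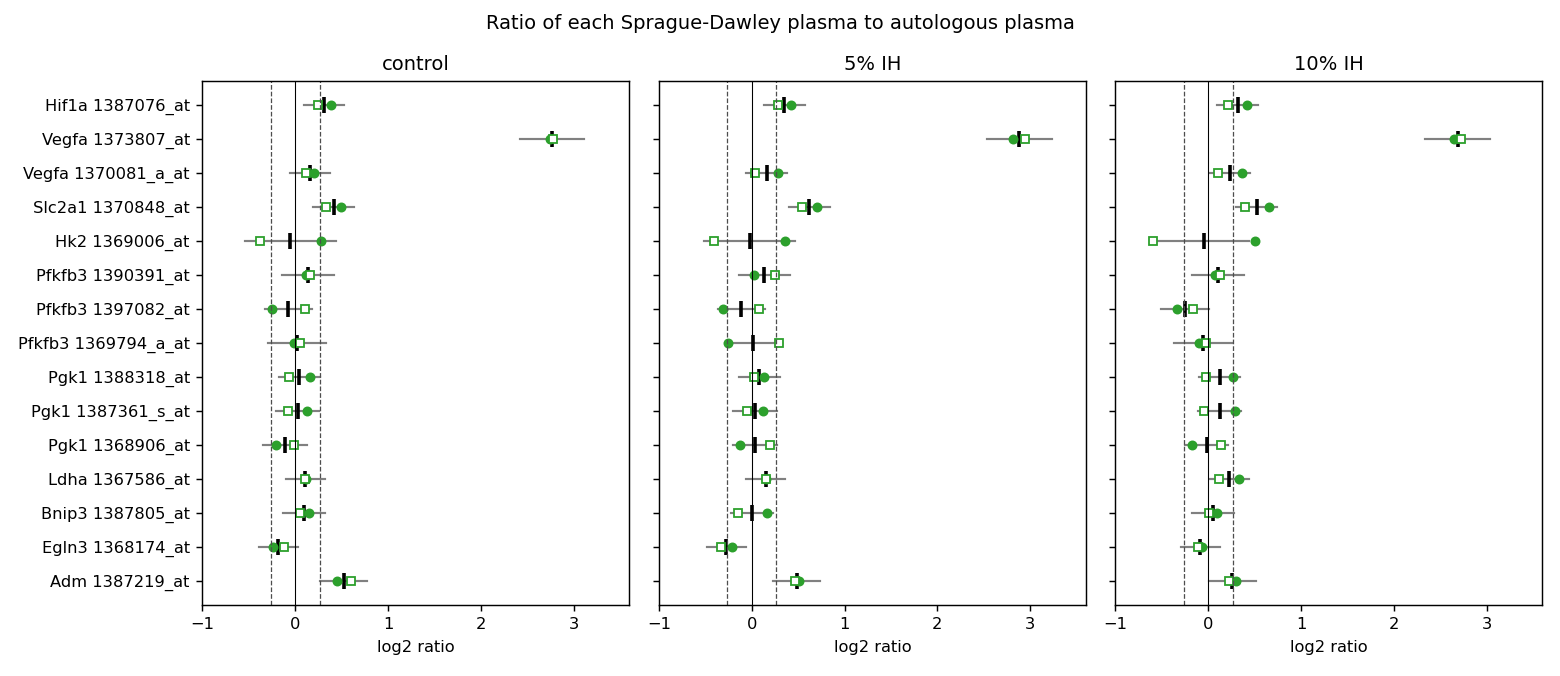
Log2 ratio of control, 5% IH and 10% IH plasma to autologous plasma for the 15 probe sets, with green circles for BN1, open squares for BN2, a black tick at the mean, a grey line for limma's 95% confidence interval and dashed lines where the level differs 1.2-fold. *Vegfa* 1373807_at stands at 2.76, 2.88 and 2.69, and the donors of *Hk2* lie on opposite sides of 0 in all 3 panels.

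The letters of the HIF-1 binding site were then looked up in promoters, since *Vegfa*, *Slc2a1*, *Hif1a* and *Adm* moved in the same direction. RefSeq promoter windows of build GRCr8, 250 bases before to 50 after an annotated start, were found for 9 of the 10 genes (10 windows, 2 of them for *Vegfa*), and *Pgk1* had none. The letters searched were ACGTG and GCGTG, the core of the hypoxia response element, on both strands, so that the palindrome CACGTG, also an E-box, counts on each strand. Shown are the windows of these 4 genes (of *Vegfa* 1 of its 2) and, as the one with most matches, that of *Ldha*, each 5′ to 3′ with matches in capitals (CACGT and CACGC are the same letters on the opposite strand). They are chr9:22452604-22452903 for *Vegfa*, chr5:138002272-138002571 for *Slc2a1*, chr6:98359648-98359947 for *Hif1a*, chr1:174179950-174180249 for *Adm* and chr1:106507842-106508141 for *Ldha*, all on the + strand.
Vegfa: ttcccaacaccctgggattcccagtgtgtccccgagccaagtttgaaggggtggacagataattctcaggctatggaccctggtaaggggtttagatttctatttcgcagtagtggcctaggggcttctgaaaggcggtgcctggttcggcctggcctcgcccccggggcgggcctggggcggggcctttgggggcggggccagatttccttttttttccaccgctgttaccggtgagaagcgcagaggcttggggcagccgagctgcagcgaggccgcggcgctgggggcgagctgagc
Slc2a1: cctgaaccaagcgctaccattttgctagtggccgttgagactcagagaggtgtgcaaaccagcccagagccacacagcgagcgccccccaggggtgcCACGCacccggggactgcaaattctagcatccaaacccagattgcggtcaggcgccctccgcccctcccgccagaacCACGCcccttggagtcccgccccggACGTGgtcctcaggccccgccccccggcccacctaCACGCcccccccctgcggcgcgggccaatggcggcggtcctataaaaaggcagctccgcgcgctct
Hif1a: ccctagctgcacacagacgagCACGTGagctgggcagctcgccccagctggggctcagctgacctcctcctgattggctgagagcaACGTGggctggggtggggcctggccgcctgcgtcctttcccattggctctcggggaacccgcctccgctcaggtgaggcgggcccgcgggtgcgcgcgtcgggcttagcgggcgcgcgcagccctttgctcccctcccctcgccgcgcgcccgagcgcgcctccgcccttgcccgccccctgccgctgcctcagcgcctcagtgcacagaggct
Adm: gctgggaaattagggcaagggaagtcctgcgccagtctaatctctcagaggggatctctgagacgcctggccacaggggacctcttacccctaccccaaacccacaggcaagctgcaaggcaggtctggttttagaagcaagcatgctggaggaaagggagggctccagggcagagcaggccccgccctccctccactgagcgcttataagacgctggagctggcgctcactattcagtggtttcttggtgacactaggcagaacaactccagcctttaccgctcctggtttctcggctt
Ldha: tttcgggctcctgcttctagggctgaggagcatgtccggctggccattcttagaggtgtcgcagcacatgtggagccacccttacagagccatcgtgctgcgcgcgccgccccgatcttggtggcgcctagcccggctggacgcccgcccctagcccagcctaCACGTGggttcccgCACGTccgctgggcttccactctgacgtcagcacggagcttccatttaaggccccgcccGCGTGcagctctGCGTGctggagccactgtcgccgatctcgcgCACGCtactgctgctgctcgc

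The *Slc2a1* window held 1 ACGTG and 3 GCGTG, that of *Hif1a* 3 ACGTG, 2 of them the strands of 1 CACGTG, and that of *Ldha* 3 of each. *Pfkfb3* and *Bnip3* held matches too, while both *Vegfa* windows and those of *Adm*, *Hk2* and *Egln3* held 0. In all, 5 of the 10 windows held either motif, against 41.6% of all 33469 windows. By motif, 5 of the 10 held ACGTG, against 19.3% of all windows, and 3 held GCGTG, against 29.7%. These differences were not tested. Of the 4 genes that were higher with control plasma 2 had a match, and *Ldha*, with 6, did not meet the criterion in any comparison. A match is a description of the letters and no evidence of binding. Sequence outside these windows was not searched, so that 0 matches does not mean that a gene lacks a site.

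**Figure D3:**
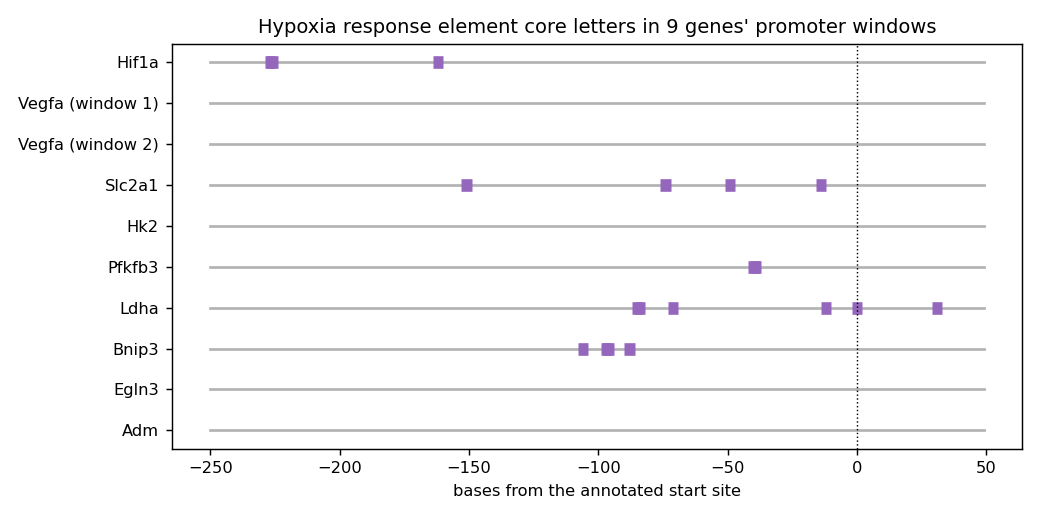
Positions of ACGTG or GCGTG on either strand in the promoter windows of 9 genes, with distance from the annotated start in bases on the x axis, a grey line per window and a square per match (overlapping matches merge). *Ldha* and *Slc2a1* hold 6 and 4 matches, and 5 of the 10 windows hold 0.

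Between plasma of rats exposed to neonatal IH and normoxic control plasma these genes hardly differed. With 5% IH plasma 0 of the 15 probe sets met the criterion, where 3.1% of all probe sets did, and log2 ratios to control ran from -0.09 to 0.20. The highest was that of *Slc2a1*, at 0.20 in cells of each donor (95% confidence interval -0.02 to 0.43, adjusted p = 1). For *Vegfa* the ratio was 0.12 (-0.23 to 0.47), with 0.07 in BN1 and 0.16 in BN2, and without the BN1 array of 5% IH it was 0.29, which met the criterion, while it was -0.05 without the BN2 array of 5% IH. For *Hif1a* it was 0.04 (-0.18 to 0.26) and for *Ldha* 0.05 (-0.16 to 0.26). limma called 0 of the 15 and 0% of all probe sets, and at an unadjusted p under 0.05 there were 0 of the 15 and 790 of all. Markers of monocytes were not level in this comparison, since 3 of 9 met the criterion, *Adgre1* (0.54), *Cd14* (0.40) and *Itgam* (0.28, and 0.16 without the BN1 control array or 0.10 without the BN2 array of 5% IH).

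With 10% IH plasma *Adm* alone met the criterion against control, as lower (log2 ratio -0.27, SE 0.112, 95% confidence interval -0.52 to -0.01), where 3.37% of all probe sets were lower. The ratio was -0.15 in BN1 and -0.38 in BN2, and limma gave an unadjusted p = 0.0423 and an adjusted p = 0.920. The call was lost without the BN2 control array (-0.12) or either array of 10% IH (-0.24 without BN1 and -0.29 without BN2), with a second quantile normalization (-0.26), with a 2-sided p and with the dimmest probe sets left out. The other probe sets had ratios from -0.17 (*Pfkfb3* 1397082_at) to 0.12 (*Ldha*, -0.09 to 0.33), with -0.08 for *Vegfa* (-0.43 to 0.27), 0.11 for *Slc2a1* and 0.00 for *Hif1a* (-0.21 to 0.22). limma called 0 of the 15 and 0% of all probe sets, and at an unadjusted p under 0.05 there were 1 and 1612. Of the 9 monocyte markers 0 met the criterion. Of 5 measured B cell markers 1 was lower, *Fcer2* (-0.61), and the median log2 ratio of the 5 was -0.10. Of 6 red cell precursor markers 1 was higher, *Alas2* (0.31, and 0.17 without the BN1 array of control or of 10% IH), and their median was 0.02. The part of these cell types in the *Adm* value was not tested.

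Compared directly, 5% IH and 10% IH plasma gave 0 calls among the 15 probe sets, where 6.33% of all probe sets met the criterion, and limma called 0 of the 15 and 0% of all (0 and 1452 at an unadjusted p under 0.05). The log2 ratio of 5% to 10% IH was 0.23 for *Adm* (-0.03 to 0.48, with 0.21 in BN1 and 0.24 in BN2), 0.20 for *Vegfa* (-0.15 to 0.54, with 0.17 and 0.22) and -0.19 for *Egln3* (-0.40 to 0.02, with -0.15 and -0.23). Without the BN1 array of 5% IH (0.36) or the BN2 array of 10% IH (0.34) *Vegfa* met the criterion, while leaving out the 5% IH array of BN2 gave a ratio of 0.03 and leaving out the 10% IH array of BN1 one of 0.05. The 95% intervals of the 3 comparisons among Sprague-Dawley plasmas were widest for *Hk2*. They reached down to -0.52 (*Adm*, 10% IH against control) and up to 0.54 (*Vegfa*, 5% against 10% IH). The 3 comparisons share arrays with each other and with those against autologous plasma.

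**Figure D4:**
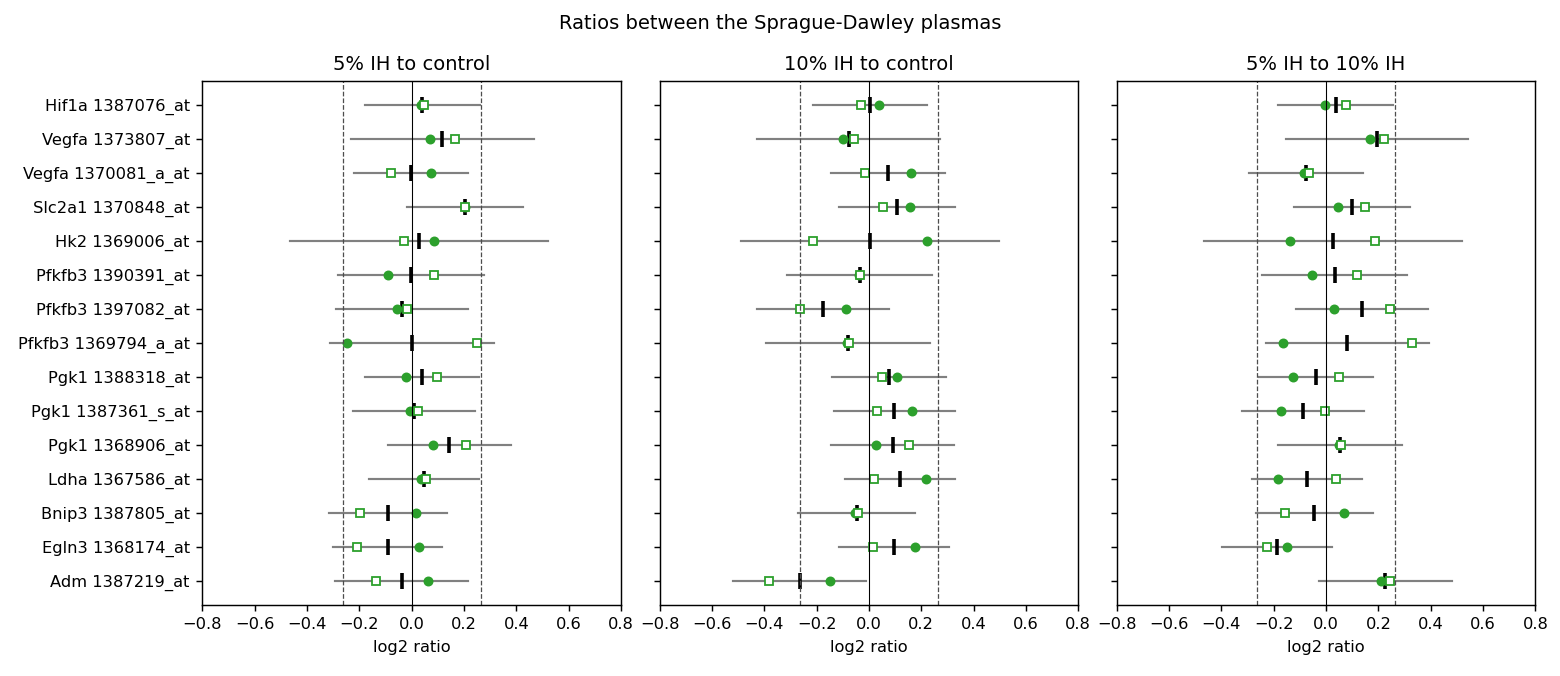
Log2 ratios among the 3 Sprague-Dawley plasmas for the 15 probe sets, with green circles for BN1, open squares for BN2, a black tick at the mean, a grey line for limma's 95% confidence interval and dashed lines where the level differs 1.2-fold. Means lie between -0.27 and 0.23, and *Adm* with 10% IH against control (-0.27) is the only one beyond a dashed line.

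Other genes of the pathway were taken from fixed lists, by the brightest probe set of each gene. With control against autologous plasma, where 6.16% of all genes were higher and 3.97% lower, 1 of 12 HIF regulators and cofactors was higher and 2 were lower (median log2 ratio 0.01). *Siah2*, a ubiquitin ligase that targets prolyl hydroxylases, was higher (0.30, and not called without either control array or the BN1 array of autologous plasma, at 0.29, 0.31 and 0.24), and *Cited2*, which competes with HIF-1 alpha for its coactivators (-0.34), and *Egln2*, another prolyl hydroxylase (-0.27, and not called with any array of the comparison left out), were lower. Of 40 other hypoxia-inducible targets 7 were higher and 2 lower (median 0.02). *Plaur*, the urokinase receptor, was at 3.95 and 4.68 with autologous plasma and at 6.28 and 6.50 with control plasma. Its log2 ratio was 2.08 (adjusted p = 0.000935 from limma), and 1.71 to 2.44 with 1 array left out. On the BN1 autologous array it lay below *Vegfa*, so the size of its ratio is less certain than its direction. *Hmox1*, heme oxygenase 1 (1.51), *Bhlhe40*, a transcriptional repressor (0.90, and 0.42 without the BN1 or 1.37 without the BN2 array of autologous plasma), *Angptl4*, an inhibitor of lipoprotein lipase (0.75), and *Anxa2*, a membrane-binding protein (0.70), rose as well, and *Ddit4*, an inhibitor of mTORC1, fell (-0.77, and -0.51 without the BN2 array of autologous plasma). *Plaur*, *Hmox1* and *Anxa2* are also expressed by monocytes, of whose 9 markers 6 were higher in the same comparison. The part of monocytes in any of the ratios of these targets was not tested.

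Of 23 other glycolysis genes 4 were higher and 1 lower with control than with autologous plasma (median -0.05). *Slc16a3*, the lactate exporter MCT4, rose by 0.60 on the log2 scale, from 5.92 on both autologous arrays to 6.44 and 6.61. *Pfkfb4*, a relative of *Pfkfb3*, rose by 0.59, from 5.19 and 5.51 to 5.91 and 5.97. *Aldoa*, aldolase (0.32, and not called without the BN2 array of control or of autologous plasma, at 0.24 and 0.29), and *Eno2*, an enolase (0.34, and not called without the BN2 control array or the BN1 array of autologous plasma, at 0.29 and 0.24), rose too, while *Pfkp*, the platelet type of phosphofructokinase, fell (-0.63, and -0.40 without the BN2 array of autologous plasma). All 7 measured platelet markers had ratios below 0 in this comparison (-0.25 to -0.07), 0 of them by the criterion, and their part in the *Pfkp* value was not tested. Of 11 genes of pyruvate entry and mitochondrial fuel choice 0 were higher and 2 lower, *Pdha1*, a subunit of pyruvate dehydrogenase (-0.72, and -0.38 without the BN2 array of autologous plasma), and *Mpc1*, a subunit of the mitochondrial pyruvate carrier (-0.38).

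Against control, the IH plasmas changed few of these genes. With 5% IH plasma, where 1.46% of all genes were higher and 1.03% lower, 1 of the 40 targets was higher and 1 lower, and none of the 12 regulators, 23 glycolysis genes or 11 pyruvate genes met the criterion. The higher one was *Hmox1* (0.27, and 0.16 without the BN1 control array or 0.08 without the BN2 array of 5% IH). The lower one was *P4ha1* (-0.27, just past the threshold). It had been higher with control than with autologous plasma (0.56, adjusted p = 0.0184 from limma). With 10% IH, where 2.04% were higher and 2.26% lower, 2 of the 40 targets were higher, *Ddit4* (0.46) and *Plaur* (0.37, and 0.26 without the BN1 control array), as were *Eno1*, the main enolase (0.27, and 0.20 without the BN1 control array or 0.07 without the BN1 array of 10% IH), *Pfkp* (0.27, and not called without the BN2 control array or either array of 10% IH) and *Pdha1* (0.43), and none of these lists had a lower gene. Each had an adjusted p = 0.920 or more in limma.

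**Figure D5:**
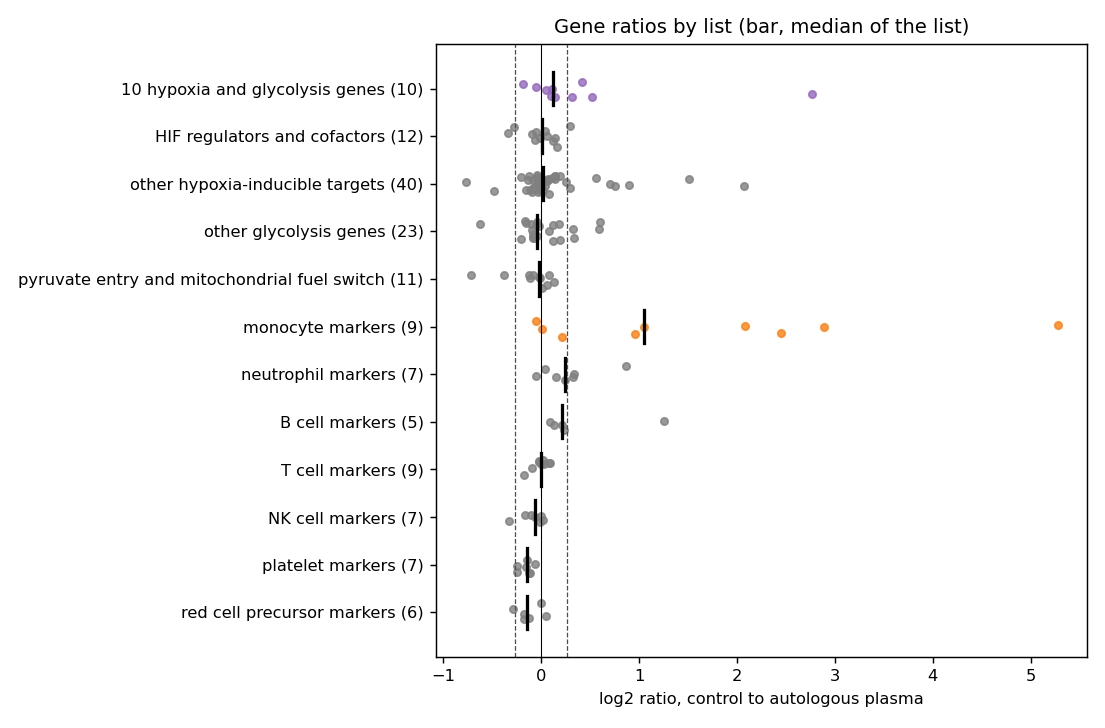
Log2 ratio of control to autologous plasma for each gene of the fixed lists (points, number of measured genes in brackets), with a bar at the median of the list and dashed lines where the level differs 1.2-fold. The 10 genes described here have a median of 0.12 and 1 point at 2.76 (*Vegfa*), and the 9 monocyte markers a median of 1.05.

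Correlations between these genes are given as descriptions, since the 8 arrays split into 2 autologous and 6 Sprague-Dawley arrays. Pearson's r of *Vegfa* with *Hif1a* was 0.95 over 8 arrays and 0.79 over the 6 Sprague-Dawley arrays alone, with *Slc2a1* 0.94 and 0.36 and with *Adm* 0.86 and 0.66. That of *Slc2a1* with *Adm* was 0.78 and -0.01. Among pairs of the glycolysis genes *Hk2*, *Pfkfb3*, *Pgk1* and *Ldha*, r was highest for *Pgk1* with *Ldha* (0.81 and 0.76). It was lowest over 8 arrays for *Hk2* with *Pfkfb3* (-0.45 and 0.42). Other pairs of members went in opposite directions, such as *Vegfa* with *Egln3* (-0.71 and -0.30) and, over the 6 arrays, *Hif1a* with *Bnip3* (0.26 and -0.80). Of 9970 genes compared, those most like *Vegfa* over the 8 arrays were *Hopx*, *Clec7a* and *Pilra* (each r = 0.999), the latter pair being receptors of myeloid cells. Those most like *Slc2a1* were *Sod2*, *Tp53inp2* and *Htr7* (0.988 to 0.996), and those most like *Hif1a* *B4galt6*, *Ltbr* and *Nr4a1* (0.988 to 0.994). For *Ldha* they were *Ctsd*, *Wdr1* and *Junb* (0.968 to 0.981), for *Pgk1* *Atic*, *Adcy3* and *Polr2b* (0.958 to 0.991), for *Hk2* *Tk1*, *Fyttd1* and *Dtd2* (0.953 to 0.969) and for *Pfkfb3* *Zfyve28*, *Vsir* and *Scly* (0.942 to 0.975). For *Adm* they were *Tspan33*, *Baiap2l1* and *Midn* (0.948 to 0.951), for *Bnip3* *Usp37*, *Fam98a* and *Prune2* (0.921 to 0.976) and for *Egln3* *Rab11fip4*, *Tmem170a* and *Btbd8* (0.927 to 0.976). These points share donors, arrays and the same split into plasmas.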

How the data were processed

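RNA of 8 PBMC cultures (2 donors by 4 plasmas) was hybridized to Affymetrix Rat Genome 230 2.0 arrays. The deposited log2 values were made by the authors in Expression Console and by Robust Multichip Analysis (background correction, quantile normalization and a summary of the probes of a set). The submitters' processing notes also name Partek, with no version. Of 31042 probe sets, with no missing value, 20826 have 1 gene symbol, 436 several and 9780 none. No detection calls or scanner files were used here, and the number of arrays limits the precision.

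The study's criterion was run in Python 3.11.15 on the whole table. It used the Rank Product over 4 between-array ratios, 100 permutations of values within arrays, a 1-sided p under 0.05 and 1.2-fold. limma 3.58.1 (R 4.3.3) was fitted to all 8 arrays with the 4 groups as its only terms and Benjamini-Hochberg adjustment. Both were tested on simulated data. A gene is represented by its brightest probe set with 1 symbol. Of each further list, up to 6 genes that met the criterion in any comparison, with the largest ratios, are named, and *P4ha1* besides. Genes most like a member are the 3 with the highest Pearson r above the 40th percentile of level. Members and lists were chosen with earlier results of these data known.

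Replicate numbers give the reporter donor and so pair the arrays, since same-numbered arrays hold cells of the same animal. Deviations from group means of same-donor arrays correlated at 0.240 between control and 5% IH, 0.0590 between control and 10% IH, 0.165 between both IH plasmas, and -0.00387, -0.0833 and -0.171 between autologous plasma and control, 5% IH and 10% IH. Alternatives were donor as a block (within-donor ratios in the Rank Product), a 2-sided p or no Rank Product p, normalization by quantiles or medians again, a filter on dim probe sets, averaging a gene's probe sets, an intensity trend with robust moderation, the compared arrays alone and each array left out.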

Additional observations from a re-analysis of the deposited data

Results flagged for a closer look

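*Hk2* went in opposite directions in the cells of the donors with every Sprague-Dawley plasma. Its mean log2 ratio to autologous plasma over the 3 plasmas was 0.379 in BN1 (0.276 to 0.498) and -0.464 in BN2 (-0.598 to -0.383). The autologous levels were 5.04 and 5.81, so all 3 ratios of a donor share 1 autologous array, and the difference between donors was not tested. *Pgk1* did the same by probe set 1387361_s_at, with 0.178 in BN1 (0.119 to 0.291) and -0.0577 in BN2 (-0.0755 to -0.0461), a difference that was not tested either.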

How the results depend on the processing

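Of 534 gene ratios under alternatives, 506 kept their side of the criterion and changed sign, if at all, by less than the spread between replicates. Calls by the criterion among the 15 probe sets ranged, with 1 array left out, from 0 to 1 for 5% IH against control (*Vegfa*, without the BN1 array of 5% IH), 0 to 1 for 10% IH against control, 0 to 1 for 5% against 10% IH, 3 to 5 for control and for 5% IH against autologous and 2 to 5 for 10% IH against autologous. For 10% IH against control the single call (*Adm*) became 0 with a second quantile normalization, after dropping the dimmest 40% of probe sets (*Adm* itself is then not tested) and with a 2-sided p. For 10% IH against autologous 3 became 5 with a second quantile normalization (*Adm* and *Pfkfb3* 1397082_at). *Hk2* reversed to 0.333 with control and 0.362 with 5% IH without the BN2 array of autologous plasma, and was -0.440 and -0.411 without the BN1 array.

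Calls by limma with control against autologous rose from 1 to 2 with a second quantile normalization, to 2 without the dimmest probe sets, to 2 with the replicate block (*Vegfa* and *Adm*) and to 3 with an intensity trend and robust moderation. With 5% IH against autologous 2 became 3 with an intensity trend and robust moderation (*Hif1a* added), 1 with the compared arrays alone and 1 to 2 with an array left out. With 10% IH against autologous 2 became 1 with the replicate block, 1 with the compared arrays alone and 1 to 2 with an array left out. The replicate block changed no other call of limma on these genes. Where an array was left out, the lone array of its group is taken to vary like the other groups. The cause of these changes was not tested. Among Sprague-Dawley plasmas limma called 0 under each of 14 alternatives. By its brighter probe set *Vegfa* was called by limma against autologous plasma under each of the same 14 alternatives. Averaging its probe sets was not among these and was applied to the ratio alone. Its other probe set (1370081_a_at) was not called by limma in the main fit. The adjusted p there was 0.679 with control, 0.669 with 5% IH and 0.474 with 10% IH. Over the alternatives the adjusted p of *Slc2a1* ranged from 0.0387 to 0.467 with control, from 0.00246 to 0.117 with 5% IH and from 0.0116 to 0.241 with 10% IH, and that of *Adm* from 0.0432 to 0.407 with control.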

Other observations

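Some genes whose mean level was highest with autologous plasma lay higher with 10% IH than with control plasma. *Ddit4*, which hypoxia and also glucocorticoids induce, was at 9.45 and 9.96 with autologous plasma, 8.92 and 8.95 with control, 9.11 and 9.05 with 5% IH and 9.47 and 9.32 with 10% IH plasma. *Pdha1* was at 11.03 and 11.70, 10.66 and 10.64, 10.77 and 10.71, and 11.12 and 11.05 in the same order, and *Pfkp* at 9.39 and 9.84, 9.0 and 8.98, 9.06 and 9.02, and 9.29 and 9.24. In each the BN2 array of autologous plasma was the highest of the 8. Without it the log2 ratio of 10% IH to autologous plasma was 0.05 for *Pdha1*, -0.05 for *Ddit4* and -0.13 for *Pfkp*. The 10% IH ratio of *Pfkp* to control (0.27) fell to 0.25, below 1.2-fold, when the BN1 array of 10% IH was left out. This pattern was picked after the values were seen, and it was not tested.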
